A study of Mus musculus with 22 samples.

Results

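The genes described here are 10 receptors and regulators through which T cells are restrained or costimulated: Pdcd1, Ctla4, Lag3, Havcr2, Tigit, Cd96, Btla, Icos, Cd28 and Tox. They were taken by symbol from the 41388 genes of the deposited tables, all 10 were found, and all 10 were among the 15043 genes that were tested. The cells came from tumors of the PyMT-BO1 mouse breast cancer line, called MMTV-BO1 in the labels, which were grown in C57BL/6 mice aged 56 postnatal days and collected 2 weeks after inoculation. The sample labels call the tumors orthotopic and the series text calls them subcutaneous. All mice carried Osx-cre and the Ai9 TdTomato reporter. Cre driven by the Sp7 (Osterix) promoter thus leaves TdTomato in osteolineage cells and in the descendants of any cell in which Cre was active. Doxycycline represses this Cre, and the paper states that mice fed it until weaning served in all work after its first experiments. GFP-labeled tumor cells had been separated before the stroma was sorted into TdT single positive (TdTOSX+;CD45-), double positive (TdTOSX+;CD45+), CD45 single positive (TdTOSX-;CD45+) and double negative (TdTOSX-;CD45-) cells. The mice were either wild type (Osx-cre;Ai9, 4 mice inoculated) or Cdh2-cKO (Cdh2-cKO;Ai9, 6 mice inoculated), and for either genotype 2 TdT single positive libraries and 3 libraries of every further population were sequenced, which gives 22.

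T cells need another signal beside that of the T cell receptor, and CD28 and ICOS deliver it when they meet ligands of the B7 family. PD-1 (Pdcd1), CTLA-4, LAG-3, TIM-3 (Havcr2), TIGIT, CD96 and BTLA oppose that signal and include the targets of clinical checkpoint blockade. PD-1, CTLA-4, LAG-3, TIM-3 and TIGIT are raised on T cells that have met antigen for a long time. TOX is a nuclear factor that maintains the exhausted state of such T cells. Several of these receptors are also found outside T cells, TIM-3 on macrophages and dendritic cells, BTLA on B cells, and CD96, TIGIT and LAG-3 on NK cells.

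Between 16594228 and 26784003 reads were counted per library, and 3 reads were taken as the smallest signal. Ptprc, which encodes CD45, lay between 471 and 1820 normalized CPM (counts scaled to library size, with a further factor between libraries) in the 12 CD45+ libraries and between 2.45 and 337 in the 10 CD45- libraries. Of the CD45- libraries, 2 carried many leukocyte transcripts: the 5 macrophage markers summed to 3430 normalized CPM in double negative wild type replicate 3 and to 2640 in TdT single positive Cdh2-cKO replicate 1, against 928 or less in the others. CD45 single positive wild type replicate 2 stands apart from the other CD45+ libraries, with 2440 normalized CPM of the 8 T cell markers against 30.1 to 505, and 3470 of the 5 B cell markers against 8.55 to 21.7. Results that rest on it are given with and without it. Sp7 itself had at most 1 read in any library. Cdh2 does not follow the genotype labels, with 237 to 502 reads in the CD45- libraries labelled Cdh2-cKO and 82 to 179 in those labelled wild type, so that directions between the genotypes below are directions between labels. Ddx3y, a gene of the Y chromosome, had 638 to 3220 reads in 8 libraries and at most 11 in the other 14, although the labels give no sex. The 8 are wild type replicate 1 of every population, CD45 single positive wild type replicate 2, and Cdh2-cKO replicate 2 of every population but CD45 single positive. Of these 8, 3 also had 1218 to 3115 reads of Xist, which silences the X chromosome in females, against 1588 to 3738 in the 14 and 56 to 213 in the other 5. Results without the 8 libraries, an alternative chosen after seeing the data in which a group left with 1 library is assumed to vary like the others, are given beside those from all libraries.

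The region just upstream of a gene can be read beside its expression, and 3 members that differed in their pattern over the libraries are shown with the 250 bases before their RefSeq start (GRCm38.p6), Pdcd1 at chr1:94052554-94052803 on the minus strand, Tigit at chr16:43664185-43664434 on the minus strand and Havcr2 at chr11:46454681-46454930 on the plus strand. Capitals mark GGAAA, the core of sites of the calcium-dependent factor NFAT, and AGGAAGT, a core of ETS factors such as PU.1, each on either strand.
Pdcd1: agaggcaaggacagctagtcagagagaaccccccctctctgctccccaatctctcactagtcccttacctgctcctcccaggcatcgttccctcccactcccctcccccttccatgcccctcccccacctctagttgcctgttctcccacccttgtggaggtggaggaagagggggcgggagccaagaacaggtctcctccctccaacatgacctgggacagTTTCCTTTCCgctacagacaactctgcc
Tigit: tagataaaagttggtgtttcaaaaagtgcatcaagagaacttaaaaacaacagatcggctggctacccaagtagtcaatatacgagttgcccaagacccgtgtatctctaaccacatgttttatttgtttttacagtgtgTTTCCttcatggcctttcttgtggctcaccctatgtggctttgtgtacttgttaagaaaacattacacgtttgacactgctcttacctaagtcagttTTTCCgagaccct
Havcr2: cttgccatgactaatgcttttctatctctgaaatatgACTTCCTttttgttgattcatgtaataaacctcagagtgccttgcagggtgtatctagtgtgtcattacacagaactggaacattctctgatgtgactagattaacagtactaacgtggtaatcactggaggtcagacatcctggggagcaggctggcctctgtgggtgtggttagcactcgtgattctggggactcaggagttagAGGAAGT
Of the 6 members in the promoter table, 4 held GGAAA (Pdcd1, Ctla4, Tigit and Cd96), as did 55.6% of 32851 promoters of that length, and 2 held AGGAAGT (Havcr2 and Btla), as did 7.69% of them. These are matches of letters and no measure of binding. Lag3, Icos, Cd28 and Tox are not in that table.

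Checkpoint and costimulatory transcripts were higher in CD45+ than in CD45- cells. Of the 10 members, 9 passed the test in that direction, averaged over both genotypes, against 32.6% of all 15043 genes. Among the inhibitory receptors the log2 fold change was 3.30 ± 0.83 (SE) for Pdcd1 (adjusted p = 0.00205), 3.74 ± 0.92 for Ctla4 (adjusted p = 0.00176), 2.42 ± 0.51 for Lag3 (adjusted p = 0.000508), 3.36 ± 0.54 for Havcr2 (adjusted p = 4.05e-05), 3.35 ± 1.1 for Cd96 (adjusted p = 0.0134) and 4.98 ± 0.90 for Btla (adjusted p = 0.000123). The costimulatory Cd28 (3.80 ± 0.83, adjusted p = 0.000716) and Icos (4.09 ± 0.83, adjusted p = 0.000342) and the transcription factor Tox (4.47 ± 0.89, adjusted p = 0.000344) rose as well. The T cell receptor subunit Cd3e, the reference used below, differed by 4.16 ± 0.94 (adjusted p = 0.00094), and the median over the members was 3.55 against 0.06 over all genes. Without CD45 single positive wild type replicate 2, 8 members passed, and Cd96 (1.84 ± 0.90, adjusted p = 0.0801) did not. Of all genes, 67.1% were called in either direction in that fit. Leaving out CD45 single positive Cdh2-cKO replicate 1 also lost Cd96 (adjusted p = 0.123). In the 14 libraries with few Ddx3y reads the median over the members was 2.24 against 0.002 over all genes, with Cd96 at 0.54. The CD45+ and CD45- ranges of every member overlapped. In CD45- libraries Pdcd1 reached 4.02 normalized CPM, Ctla4 4.37, Icos 4.89, Cd28 2.98, Btla 2.75, Cd96 1.39 and Tox 0.929, and these highest values lay in TdT single positive wild type replicate 2, TdT single positive Cdh2-cKO replicate 1 or double negative wild type replicate 3. In bulk libraries such as these, fewer cells of a type and less RNA per cell cannot be told apart.

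**Figure D1:**
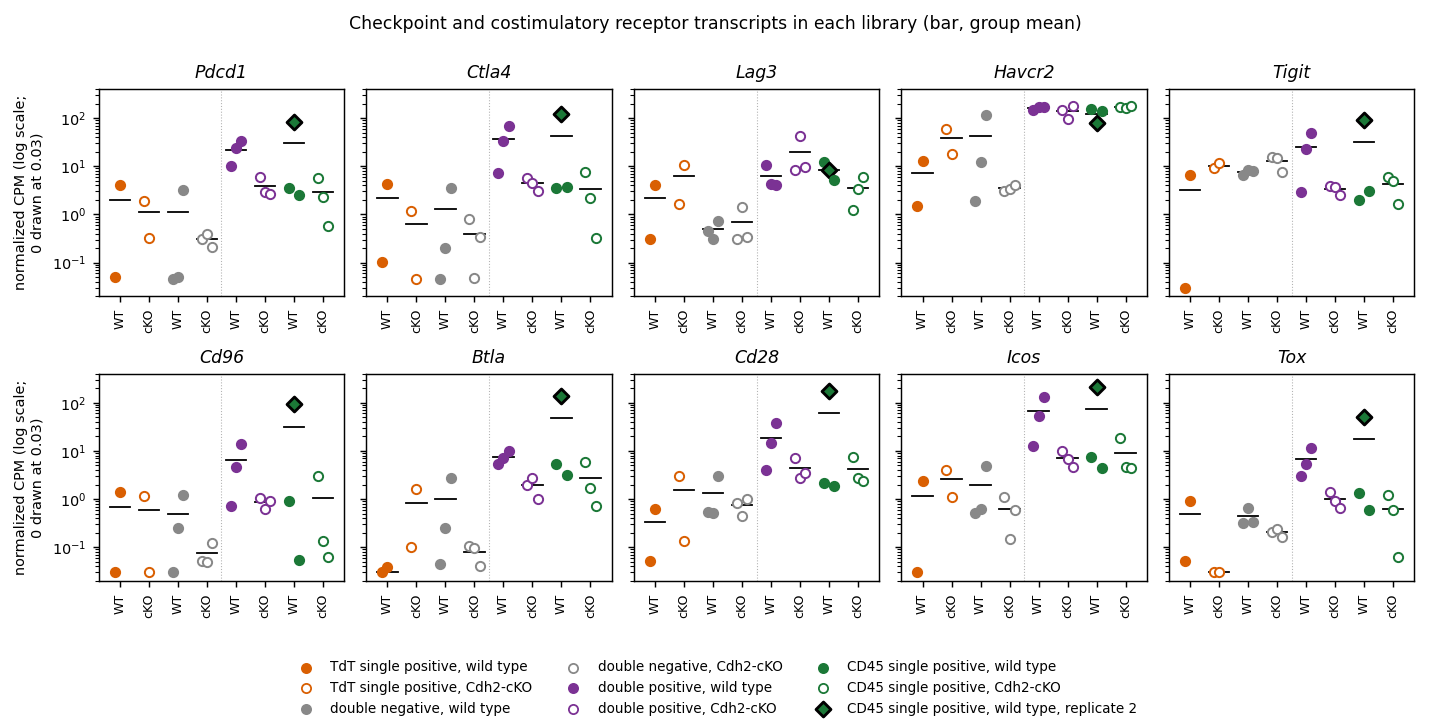
Normalized CPM (y axis, log scale, 0 drawn at 0.03) of the 10 members in each of the 22 libraries, with groups along the x axis, points for libraries, bars for group means and a dotted line between CD45- groups (left) and CD45+ groups (right). For 8 members CD45 single positive wild type replicate 2 is the highest library, whereas Havcr2 is nearly level over the CD45+ libraries and Tigit is as high in most CD45- libraries as in most CD45+ libraries.

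Tigit was the member that did not pass (0.44 ± 0.65, adjusted p = 0.578). It encodes an inhibitory receptor of T and NK cells that binds CD155 (chr16:43648861-43664184, minus strand, GRCm38). TdT single positive cells held 0 and 6.54 normalized CPM in wild type and 9.0 and 11.5 in Cdh2-cKO libraries. Double negative cells held 6.70, 8.48 and 7.97 in wild type and 15.3, 15.1 and 7.66 in Cdh2-cKO libraries. In CD45+ cells Tigit was 2.97, 22.4 and 48.3 in double positive and 1.98, 91.1 and 3.12 in CD45 single positive wild type libraries, and 3.80, 3.68 and 2.52 and 5.98, 5.01 and 1.66 in the corresponding Cdh2-cKO libraries. Thus 9 of 10 CD45- libraries lay above 9 of the 12 CD45+ libraries and below the other 3, and 1 held no read of it. Without CD45 single positive wild type replicate 2 the fold change was -0.47 ± 0.51 (adjusted p = 0.423). Leaving out TdT single positive wild type replicate 2, which leaves the library with no Tigit read as its group, gave 2.68 (adjusted p = 0.0372), the only setting in which Tigit was called.

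In 6 of the 9 CD45- libraries with Tigit, few reads of other T cell genes accompanied it. Double negative Cdh2-cKO replicate 2 had 312 reads of Tigit but 10 of Cd3e and 1 of Cd96, replicate 1 had 292, 9 and 1, and double negative wild type replicate 1 had 146, 4 and 0. They did accompany it in TdT single positive Cdh2-cKO replicate 1 (263 reads of Tigit, 102 of Cd3e and 34 of Cd96), TdT single positive wild type replicate 2 (169, 67 and 36) and double negative wild type replicate 3 (145, 103 and 22). The 8 T cell markers summed to between 1.65 and 37.8 normalized CPM in CD45- libraries. Epithelial markers (Epcam, Krt8, Krt18 and Cdh1) summed to between 490 and 1980 normalized CPM in the 9 CD45- libraries with Tigit and to 27.3 in the one without, against 132 to 470 in CD45+ libraries. That sum rests on the keratins, since in the same 9 libraries Krt8 was 91.1 to 412 and Krt18 372 to 1570 (4.27 to 48.9 and 17.3 to 168 in CD45+ libraries), whereas Cdh1 was 1.93 to 117 (85.1 to 365) and Epcam at most 2.03 (0.541 to 7.96), with Epcam at 0 in 4 of the 9. The part of these cells in the Tigit level was not tested. Zbtb20, the neighbouring gene, had 2681 reads in the library without Tigit and 962 to 3040 in the others. Per length, Tigit was the highest member in 5 of the 6 double negative libraries, at 8.10 and 9.41 RPKM (reads per kilobase of gene, scaled to library size) in wild type replicates 1 and 2 and 18.3, 18.3 and 9.44 in the Cdh2-cKO libraries, where Havcr2 lay between 0.825 and 4.75.

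Havcr2 (TIM-3, chr11:46454935-46481255, plus strand) was the most abundant member in the 11 CD45+ libraries other than CD45 single positive wild type replicate 2. Its median over these 11 was 49.9 RPKM. In CD45 single positive wild type replicate 2 it was 29.3 RPKM, below Tigit (95.7), Icos (62.8), Ctla4 (53.6), Cd96 (44.0), Pdcd1 (43.6) and Btla (42.8). The next members by median over the 11 libraries were Tigit (3.35), Lag3 (2.28), Icos (1.94), Ctla4 (1.72), Pdcd1 (1.63), Btla (0.905), Cd28 (0.513), Cd96 (0.36) and Tox (0.143). From Tigit to Tox the ranges of neighbours in this order overlap, whereas Havcr2 exceeded Tigit within each of the 11 libraries. Its normalized CPM was 149, 167 and 170 in double positive wild type, 144, 93.7 and 182 in double positive Cdh2-cKO, 151, 78.7 and 139 in CD45 single positive wild type and 167, 163 and 181 in CD45 single positive Cdh2-cKO libraries. These groups overlap, except that the CD45 single positive Cdh2-cKO libraries all lay above the CD45 single positive wild type ones. The share of all genes with such a gap was not counted, so that the gap is no result about Havcr2. The edgeR test called no member between these groups. The highest of the 12 libraries exceeds the lowest 2.31-fold, where Cd3e spans 321-fold. Without CD45 single positive wild type replicate 2 these are 1.94-fold and 56-fold. The library richest in T cell transcripts, CD45 single positive wild type replicate 2, held the least Havcr2 of the CD45+ libraries.

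Over all sorted populations, high and low Havcr2 went with high and low macrophage markers (Adgre1, Csf1r, Cd68, Mertk and C1qa). For each 100 normalized CPM of these 5 genes together, Havcr2 amounted to between 1.81 and 4.80 in the 12 CD45+ libraries (median 2.85) and between 1.4 and 3.88 in the 10 CD45- libraries (median 2.77). CD45 single positive wild type replicate 2, with 1640 normalized CPM of the markers, gave the highest of these values. Relative to Cd3e, Havcr2 instead ranged from 15.3 to 11300 reads per 100 Cd3e reads in CD45+ cells. On the log2 scale its SD over the 12 libraries was 0.38 as a level, 0.38 relative to the macrophage markers and 2.54 relative to Cd3e, and without CD45 single positive wild type replicate 2 it was 0.267, 0.314 and 1.65. Among the CD45+ libraries, dividing by the macrophage markers thus did not narrow the spread of Havcr2. Whether the Havcr2 reads come from macrophages was not tested.

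**Figure D2:**
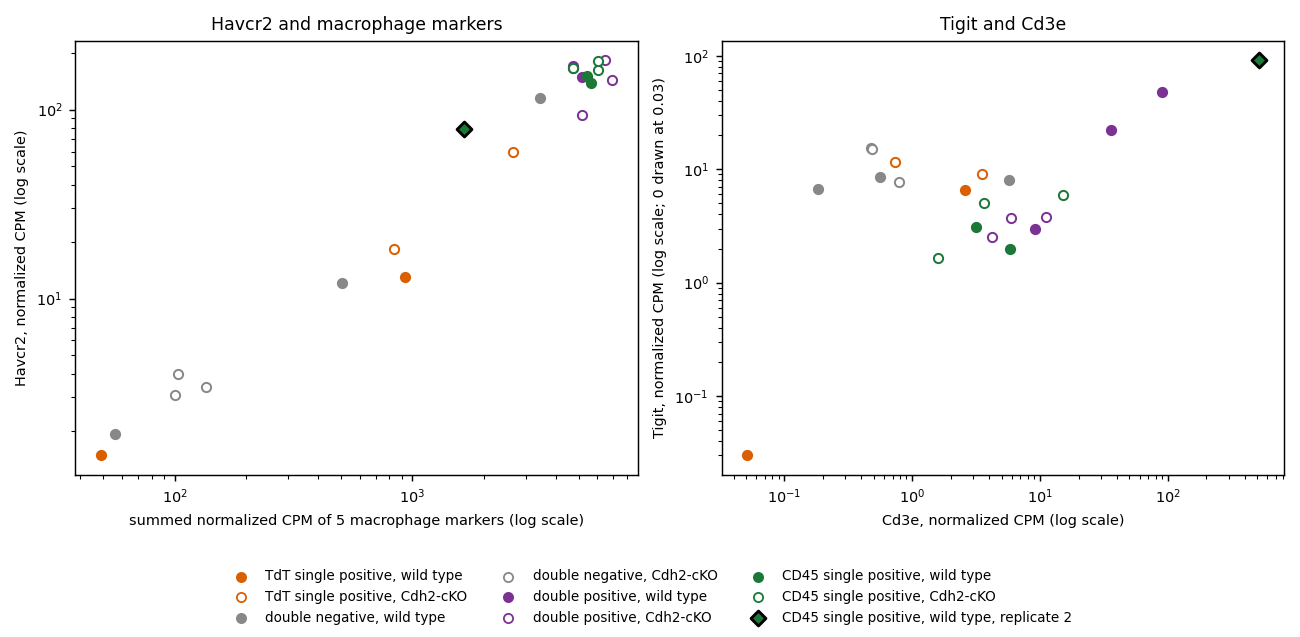
Left, Havcr2 against the summed macrophage markers; right, Tigit against Cd3e, both in normalized CPM on log axes, with 1 point for each of the 22 libraries. Havcr2 rises with the macrophage markers from 1.48 to 182, while Tigit follows Cd3e only among the libraries richest in Cd3e and sits between 6.54 and 15.3 in 9 CD45- libraries, whose Cd3e lies between 0.184 and 5.66.

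The remaining 8 members, Pdcd1, Ctla4, Tigit, Cd96, Btla, Cd28, Icos and Tox, followed the T cell content of the CD45+ libraries, a grouping made after the values were seen. Cd3e was 9.20, 35.6 and 89.5 normalized CPM in double positive wild type and 11.2, 5.91 and 4.20 in double positive Cdh2-cKO libraries, and 5.83, 514 and 3.17 and 15, 3.61 and 1.6 in the respective CD45 single positive libraries. Pdcd1 (chr1:94038305-94052553, minus strand) gave 10.3, 23.5 and 32.7, then 5.90, 2.96 and 2.64, then 3.60, 83.1 and 2.58, and then 5.76, 2.34 and 0.576 in the same order of groups. Ctla4 (chr1:60887000-60915832, plus strand), which outcompetes CD28 for the B7 ligands, gave 7.07, 33.5 and 67.5, then 5.73, 4.51 and 3.12, then 3.54, 123 and 3.77, and then 7.46, 2.20 and 0.32. In each case CD45 single positive wild type replicate 2 was highest and double positive wild type replicates 3 and 2 came next.

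Icos (chr1:60977927-61000320, plus strand), a costimulator induced upon activation, was 12.4, 53.9 and 133 in double positive wild type, 9.98, 6.79 and 4.63 in double positive Cdh2-cKO, 7.63, 213 and 4.52 in CD45 single positive wild type and 18.3, 4.54 and 4.48 in CD45 single positive Cdh2-cKO libraries. Cd28 (chr1:60716800-60773359, plus strand), the constitutive costimulator, was 3.98, 14.8 and 37.9, then 7.22, 2.76 and 3.54, then 2.16, 176 and 1.83, and then 7.62, 2.74 and 2.37. Tox (chr4:6686353-6991557, minus strand) was 3.03, 5.26 and 11.7, then 1.38, 0.921 and 0.661, then 1.32, 50.5 and 0.592, and then 1.21, 0.601 and 0.064. These 3 genes show the same order of libraries as Pdcd1 at the top. Cd28, Ctla4 and Icos are neighbours within 284 kb of chromosome 1. Reads of Ctla4, Icos and Tox are uncertain to the extent that annotated genes overlap them (Rpl18-ps1, Gm37039 and the antisense Gm11802, respectively), since the strand setting of the counting is not given in the sources used here.

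Cd96 and Btla were the sparser inhibitory receptors. Cd96 (chr16:46035657-46120251, minus strand), a receptor for CD155 like TIGIT, had 12, 78 and 268 reads in double positive wild type and 15, 1659 and 1 in CD45 single positive wild type libraries, and 19, 13 and 15 and 54, 2 and 1 in the Cdh2-cKO libraries. Btla (chr16:45224315-45252895, plus strand), which binds HVEM, was 5.46, 7.30 and 10.2 normalized CPM in double positive wild type, 1.98, 2.76 and 1.02 in double positive Cdh2-cKO, 5.47, 138 and 3.23 in CD45 single positive wild type and 5.81, 1.74 and 0.704 in CD45 single positive Cdh2-cKO libraries. Double positive wild type libraries thus differed 1.87-fold in Btla, less than in Cd3e. B cell markers, which also move in CD45 single positive wild type replicate 2, lay between 8.55 and 21.7 in the other CD45+ libraries, and their part in the Btla level was not tested.

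Lag3 (chr6:124904361-124911705, minus strand), an inhibitory receptor that binds MHC class II, did not follow Cd3e. It was 10.7, 4.38 and 4.17 normalized CPM in double positive and 12.1, 8.24 and 5.27 in CD45 single positive wild type libraries. In Cdh2-cKO libraries it was 8.38, 41.8 and 9.61 in double positive and 1.21, 3.41 and 5.95 in CD45 single positive cells. Here the 3 double positive libraries lay above the 3 CD45 single positive ones, as for 9.14% of all genes in that direction, and the fold change of 2.50 ± 0.92 did not pass the test (adjusted p = 0.966). Double positive Cdh2-cKO replicate 2, the highest library, had 862 reads of Lag3 and 122 of Cd3e, 14.2 normalized CPM of the 5 NK cell markers (4.99 to 46.9 in the other double positive libraries) and 9.89 of the 5 dendritic cell markers (7.93 to 23), and the part of these cells was not tested. TdT single positive Cdh2-cKO replicate 2 held 237 reads of Lag3 and 16 of Cd3e.

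Double positive and CD45 single positive cells were compared to ask whether TdTOSX+ leukocytes differ from the other leukocytes of the tumor. None of the 10 members passed this test, nor did any of them within wild type or Cdh2-cKO libraries. In these 3 comparisons 0 members were called by edgeR, DESeq2 and limma alike. Of all genes, edgeR called 0.00665%, 0.0% and 0.0%, DESeq2 0.0399%, 0.0332% and 0.0133%, and limma 0.00665%, 0.0% and 0.00665%. The 1 gene called by edgeR was Duoxa2, a maturation factor of dual oxidases that is no member (log2 fold change 3.27, adjusted p = 0.000917). At an unadjusted p under 0.05 there were by edgeR 0 members averaged over genotypes, 1 in wild type and 1 in Cdh2-cKO libraries, and 610, 669 and 724 of the 15043 genes. The members' log2 fold changes lay between -1.59 and 1.05 with a median of -0.31, against -0.06 over all genes. For Pdcd1 the value was -0.01 ± 0.97 and for Ctla4 0.07 ± 1.01.

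That comparison turned on CD45 single positive wild type replicate 2. Without it, 9 of 10 members had positive values, with a median of 1.58 against 0.01 over all genes. Again none passed, with an adjusted p of 1.0 for each, and 2 members and 2.99% of all genes had an unadjusted p under 0.05. Pdcd1 was then 1.62 ± 0.89, Ctla4 1.86 ± 0.98, Tigit 1.46 ± 0.73, Cd96 1.72 ± 1.19, Cd28 1.66 ± 0.73, Icos 1.55 ± 0.79 and Tox 1.72 ± 0.64, while Btla was 0.15 ± 0.73, Havcr2 -0.06 ± 0.67 and Lag3 1.04 ± 0.68. Cd3e moved alongside, at 1.70 ± 0.86. In the 14 libraries with few Ddx3y reads, 1 of them CD45 single positive wild type, all 10 values were positive, with a median of 2.01 against 0.01 over all genes. Within wild type the members other than Havcr2, Lag3 and Btla were between 2.80 and 3.77, and the 8 T cell markers summed to 76.2, 227 and 505 in double positive against 51.1 and 37.0 in the 2 remaining CD45 single positive libraries. In Cdh2-cKO libraries, with T cell markers at 70.1, 57.7 and 38 against 89.8, 38.1 and 30.1, the members other than Lag3 were between -0.52 and 0.64.

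**Figure D3:**
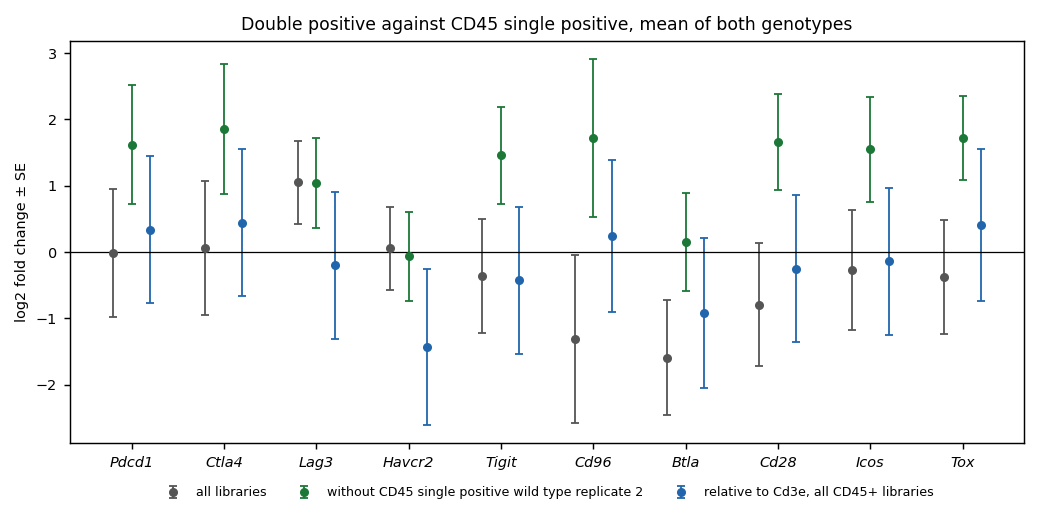
Log2 fold change with SE (y axis) of each member (x axis) between double positive and CD45 single positive cells, averaged over genotypes, with all libraries, without CD45 single positive wild type replicate 2, and relative to Cd3e. For 7 members values of -1.31 to 0.07 with all libraries become 1.46 to 1.86 without that library, and relative to Cd3e those 7 lie between -0.43 and 0.45.

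Relative to Cd3e in the same library, the T cell linked members were less variable. This follows in part from the grouping, which was made after seeing that their levels went with Cd3e. The SD of the log2 level over the 12 CD45+ libraries and that of the log2 ratio to Cd3e were 1.97 and 0.63 for Icos, 1.98 and 0.60 for Cd28, 1.97 and 0.71 for Pdcd1, 2.32 and 0.75 for Ctla4, 1.87 and 0.84 for Tigit, 2.43 and 0.77 for Tox, 3.13 and 1.14 for Cd96, and 1.96 and 0.956 for Btla. Leaving out CD45 single positive wild type replicate 2, these values were 1.61 and 0.412 for Icos, 1.35 and 0.587 for Cd28, 1.64 and 0.506 for Pdcd1, 2.01 and 0.663 for Ctla4, 1.49 and 0.715 for Tigit, 1.95 and 0.79 for Tox, 2.5 and 1.15 for Cd96, and 1.22 and 0.991 for Btla. For Lag3 they were 1.23 and 2.77 over all 12. Icos amounted to 135, 151 and 149 reads per 100 Cd3e reads in double positive wild type, 88.7, 115 and 110 in double positive Cdh2-cKO, 131, 41.4 and 142 in CD45 single positive wild type and 122, 126 and 280 in CD45 single positive Cdh2-cKO libraries. The last value, 280, rests on 25 reads of Cd3e. Pdcd1 amounted to 112, 65.9 and 36.5, then 52.5, 50 and 62.9, then 61.9, 16.2 and 81.4, and then 38.5, 64.8 and 36.0. Ctla4 amounted to 76.8, 94.1 and 75.4, then 51.0, 76.2 and 74.3, then 60.8, 24.0 and 119, and then 49.8, 61.1 and 20. For Pdcd1 and Ctla4 the populations overlap within either genotype, and the genotypes within either population. For Icos the double positive Cdh2-cKO libraries lay below the double positive wild type and the CD45 single positive Cdh2-cKO libraries. Cd28 went the other way between the labels. It amounted to 64.2, 46.7 and 84.3 in double positive Cdh2-cKO libraries, all above the 43.2, 41.6 and 42.3 in double positive wild type. The share of all genes with such gaps was not counted.

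The library with the most Cd3e had the fewest reads per Cd3e read for 6 of the 10 members, Lag3 and Havcr2 included. In CD45 single positive wild type replicate 2, Pdcd1 (16.2 per 100 Cd3e reads), Tigit (17.7), Icos (41.4) and Cd28 (34.2) were the lowest of the 12 libraries, against 36.0 to 112, 32.3 to 139, 88.7 to 280 and 37.1 to 148 in the other 11. Cd96 (18.5) and Btla (26.8) lay within the ranges of the others, 1.69 to 21.4 and 11.4 to 102. Tcf7 and Lef1, transcription factors of naive and memory T cells, were at 286 and 201 normalized CPM in that library and at most 17.0 and 9.49 in the other CD45+ libraries. These are levels and not ratios to Cd3e, which itself was 514 there and at most 89.5 in the others. Without that library Tcf7 was lower in CD45+ than in CD45- cells (-1.74, adjusted p = 0.00352 by edgeR). Their part in the low ratios was not tested. Double positive wild type libraries also differed among themselves, and Pdcd1, Btla and Tox per 100 Cd3e reads were highest in replicate 1, the library with the least Cd3e (112, 59.4 and 32.9), and lowest in replicate 3 (36.5, 11.4 and 13). Cd96 (7.74, 12.8 and 15.8 in replicates 1, 2 and 3) and Tigit (32.3, 62.8 and 54) were lowest in replicate 1, and Icos (135, 151 and 149) and Cd28 (43.2, 41.6 and 42.3) were nearly level.

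**Figure D4:**
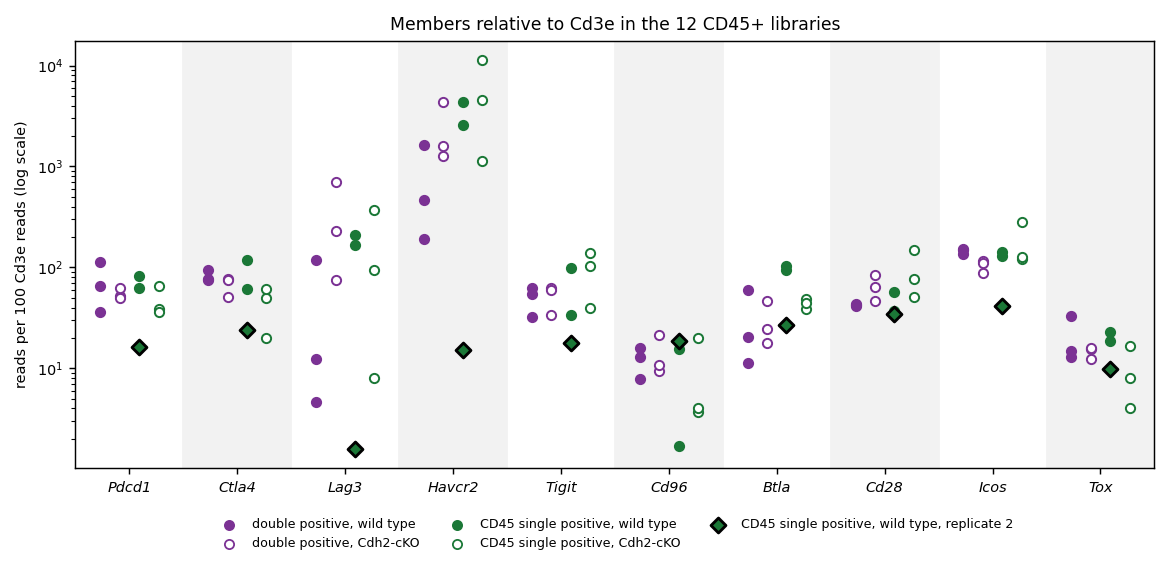
Reads of each member (x axis) per 100 Cd3e reads (y axis, log scale) in the 12 CD45+ libraries, 1 point per library. Lag3 and Havcr2 span 441-fold and 739-fold, the other members between 4.32-fold and 12.6-fold. Leaving out CD45 single positive wild type replicate 2, these are 152-fold, 59.8-fold and 3.12-fold to 12.6-fold.

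In the fit with Cd3e as the size of each library, 0 of 10 members passed between double positive and CD45 single positive cells (0.0% of 15042 genes). At an unadjusted p under 0.05 there were 0 members and 2.63% of all genes. The smallest adjusted p among the members was 0.441, for Havcr2 (-1.43 ± 1.17), and no gene in that fit had a smaller one. The median over all genes was -1.33 in the same fit, so that Havcr2 lay near the bulk of genes. In those CD45+ libraries that had few Ddx3y reads Havcr2 gave -2.37, again near the median over all genes, -2.48. Without CD45 single positive wild type replicate 2, again 0 members and 0.0% of genes passed (smallest adjusted p of a member 0.13). At an unadjusted p under 0.05 there were then 1 member and 36.9% of all genes. The members lay between -1.72 and 0.45, with a median over all genes of -1.62. With all CD45+ libraries Btla was -0.92 ± 1.13, Pdcd1 0.34 ± 1.11, Ctla4 0.45 ± 1.11, Tox 0.41 ± 1.14, Tigit -0.43 ± 1.11 and Icos -0.14 ± 1.11. An exact two-sided permutation test of the mean log2 ratio within genotypes (400 arrangements, smallest possible p = 0.005) over the 10 members gave its smallest p for Btla, at -1.04 (exact p = 0.075, unadjusted for the 10 tests). Without CD45 single positive wild type replicate 2, Btla gave -1.35 (exact p = 0.04, unadjusted, 200 arrangements). In wild type, Btla per 100 Cd3e reads was 59.4, 20.5 and 11.4 in double positive and 93.8, 26.8 and 102 in CD45 single positive libraries, which overlap.

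Between the genotype labels within double positive cells no member passed the test, by edgeR, DESeq2 or limma, and 0.0% of genes were called by edgeR. At an unadjusted p under 0.05 there were 3 members by edgeR, 3 by DESeq2 and 9 by limma (smallest adjusted p of a member with limma 0.293). Over all genes these were 515 of 15043 by edgeR, 4.21% by DESeq2 and 9.52% by limma. The 8 T cell linked members were between -3.22 (Icos, ± 1.38) and -1.99 (Btla, ± 1.25), Havcr2 was -0.21 ± 0.88 and Lag3 1.63 ± 0.88, each with an adjusted p of 1.0. Cd3e was -2.65 ± 1.54. For Pdcd1, Ctla4, Btla, Icos and Tox all 3 wild type libraries lay above all 3 Cdh2-cKO libraries, which makes 5 of 10 members, against 6.06% of all genes in that direction. The members' median was -2.64 and, in the 14 libraries with few Ddx3y reads, -2.91, against 0.012 and -0.007 over all genes. Relative to Cd3e the same 8 members lay between -0.48 and 0.62 and Lag3 at 2.92 ± 1.68 (adjusted p = 0.472). The median over all genes was 1.77 in that fit, and again 0 members were called, among 0.0% of genes.

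Between the labels within CD45 single positive cells 0 members and 0.0% of genes were called by edgeR. At an unadjusted p under 0.05 there were 8 members and 1478 genes, and fold changes reached down to -4.88 (Cd96). DESeq2 called Tox (-4.73, adjusted p = 0.0399), among 0.173% of all genes. Without CD45 single positive wild type replicate 2 the edgeR values were between -1.31 and 1.18, with 0 members at an unadjusted p under 0.05. With the presence of Y-linked transcripts as a term in the fit the median over the members was -4.52, against -3.53 without it and 0.23 in the 14 libraries with few Ddx3y reads, and 0 were called in each case. Relative to Cd3e 0 members and 0.0% of genes were called, and without CD45 single positive wild type replicate 2 0 members and 0.00665% of genes. The difference of the double positive effect between the labels was tested directly, and 0 members and 0.0% of genes were called, with Lag3 at 2.91 ± 1.25 (adjusted p = 0.952). The median over the members was 1.28, -2.67 without CD45 single positive wild type replicate 2 and -3.28 in the 14 libraries with few Ddx3y reads, again with 0 called.

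Within CD45- cells, TdT single positive and double negative cells were compared to ask whether the osteolineage mesenchymal fraction differs from the rest of the stroma. None of the members passed, among 1.89% of all genes called. Lag3 was the nearest, at 2.66 ± 0.73 (adjusted p = 0.0644), and DESeq2, which called 986 genes where edgeR called 284, called it (adjusted p = 0.00666), as did edgeR without double negative wild type replicate 3 (adjusted p = 0.0489). With limma no member was called, the smallest adjusted p among them being 0.314 and the smallest unadjusted p 0.105. Nor was one called in the 14 libraries with few Ddx3y reads (smallest adjusted p 0.114). Its normalized CPM was 0.306 and 4.02 in TdT single positive wild type and 1.68 and 10.8 in Cdh2-cKO libraries, against 0.459, 0.307 and 0.715 and 0.315, 1.4 and 0.333 in double negative cells. These ranges overlap.

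Further genes of the same pathways, from lists chosen with earlier results of these data known, were placed beside the members. Of 16 other T cell co-receptors tested, 14 were higher in CD45+ cells (32.6% of all genes were higher and 31.1% lower) and 1, Cd200 (-2.36 ± 0.44, adjusted p = 0.000181), a ligand that quiets myeloid cells, was lower. The median was 3.61, and Cd160 (4.64), Cd226 (4.46), an activating competitor of TIGIT, and Crtam (3.47) were among those that rose. Of 20 T cell signalling proteins, 18 were higher and 1, the phosphatase Ptpn11 (-0.80 ± 0.15, adjusted p = 0.000118), was lower, with a median of 3.26. The adaptors Sh2d1a (4.56) and Lax1 (3.56) and the kinase Prkcq (3.54) rose. Of 17 transcription factors of activation and exhaustion tested, 11 were higher and 1, Id3 (-3.17, adjusted p = 9.27e-08), named after its value was seen, was lower, with a median of 1.5. Without CD45 single positive wild type replicate 2 the counts higher in CD45+ cells were 13 of 15, 17 of 20 and 9 of 15.

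In the comparison of double positive with CD45 single positive cells none of these further genes passed. Medians were -0.55 for the co-receptors, -0.74 for the signalling proteins and -0.22 for the transcription factors, and 1.22, 0.72 and 0.15 without CD45 single positive wild type replicate 2. The 4 genes of each list with the smallest adjusted p had all an adjusted p of 1.0. Tcf7 (-2.25 ± 1.04), Eomes (-2.24 ± 1.04), Lef1 (-1.88 ± 0.99) and Bach2 (-1.01 ± 0.48) were those of the transcription factors, and in each the highest CD45+ library was CD45 single positive wild type replicate 2. Cd226 gave -1.72 ± 1.17 and Prkcq -1.69 ± 0.99, and without that library 0.46 ± 1.09 and 0.68 ± 0.82.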

How the data were processed

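cDNA had been made with a SMARTer kit, and the authors aligned the reads with STAR 2.0.4b to GRCm38 and counted them per gene with featureCounts 1.45, per the labels. The deposited counts are whole reads per gene with no normalization. The deposited CPM are these counts scaled to the library total, and the deposited RPKM are the CPM per kilobase of gene length; RPKM were used only to compare levels between genes. Replicate libraries differed far beyond counting noise, and the labels do not tie libraries to single mice, so that p-values measure the spread between libraries.

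Counts were analysed in R 4.3.3 with edgeR 4.0.16 (quasi-likelihood test, TMM factors, 8 groups of population and genotype), with 355 rRNA genes left out and a minimum of over 1 CPM in 2 or more libraries. Benjamini-Hochberg adjustment ran over all genes tested, and a call is an adjusted p of at most 0.05. SE of log2 fold changes were derived from that test. A fit relative to Cd3e used the Cd3e count of each of the 12 CD45+ libraries as its size. Alternatives were limma 3.58.1 (voomWithQualityWeights), DESeq2 1.42.0, RLE factors, no filter, a log2 threshold of 2, a replicate block and leaving out each library and, chosen after seeing the data, leaving out the libraries of mixed content or those with 100 or more reads of Ddx3y, or a term for the latter. The fits were tested on simulated data with the same spread for every gene and no library of differing cell content. That test therefore does not cover a library such as CD45 single positive wild type replicate 2. Promoters are RefSeq sequences of GRCm38.p6.

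The members and lists were chosen with earlier results of these data known. Named were the members, Cd3e, Ptprc, Cdh2 and, from each of 3 lists, the 4 genes with the smallest adjusted p between double positive and CD45 single positive cells.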

Additional observations from a re-analysis of the deposited data

How the results depend on the processing

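The count of members higher in CD45+ cells was 9 under RLE factors, DESeq2, no filter, a log2 threshold of 2 and the replicate block, 8 with limma voomWithQualityWeights, where Cd96 was not called (adjusted p = 0.125), and 9 without 3 libraries of mixed content (CD45 single positive wild type replicate 2, double negative wild type replicate 3 and TdT single positive Cdh2-cKO replicate 1), an alternative added after seeing the data, under which Tigit was -0.57. The count was 9 with Y-linked transcripts as a term. In the 14 libraries with few Ddx3y reads, likewise chosen after seeing the data, Cd96 was 0.543 and Tigit -0.528. Of all genes, 62.8% were called in either direction with RLE factors, 64.3% with DESeq2, 33.1% without the filter and 60.9% with the block. These shares were 66.1% with limma, 66.2% without the 3 libraries and 63.5% with the Y-linked term. Leaving out single libraries gave counts of 8 to 10 and Tigit values between -0.473 and 2.68. Between TdT single positive and double negative cells 1 member (Lag3) was called with DESeq2, among 6.55% of all genes, and without those 3 libraries, among 5.17%. When single libraries were left out, between 0 and 1 were called. Between the labels in CD45 single positive cells DESeq2 called 1 member, among 0.173% of all genes. All other counts stayed at 0 under every alternative run.

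No member was called between double positive and CD45 single positive cells under any alternative, but signs changed. With limma voomWithQualityWeights the log2 fold changes were 1.80 for Pdcd1, -0.0423 for Havcr2, 1.32 for Tigit, 2.36 for Cd96, 0.256 for Btla, 1.41 for Icos, 1.44 for Cd28 and 1.97 for Tox. Pdcd1 was 0.0101 with DESeq2, 0.00658 with RLE factors and 0.0104 without the filter. In the 14 libraries with few Ddx3y reads they were 2.0 for Pdcd1, 1.55 for Tigit, 3.56 for Cd96, 0.284 for Btla, 2.03 for Icos, 2.1 for Cd28 and 2.26 for Tox, and relative to Cd3e -0.18 for Pdcd1. With Y-linked transcripts as a term Ctla4 was -0.297. Leaving out single libraries gave -0.285 to 1.62 for Pdcd1, -0.347 to 1.86 for Ctla4, -0.0615 to 0.167 for Havcr2, -0.84 to 1.46 for Tigit, -1.96 to 1.72 for Cd96, -1.87 to 0.151 for Btla, -0.768 to 1.55 for Icos, -1.30 to 1.66 for Cd28 and -0.719 to 1.72 for Tox, the upper ends, except for Havcr2, being those without CD45 single positive wild type replicate 2. Relative to Cd3e, limma voom gave 0.304 for Lag3, and leaving out single libraries gave -1.39 to 0.617 for Lag3, -0.629 to 0.0476 for Tigit, -0.00159 to 0.917 for Cd96, -0.331 to 0.111 for Icos and -0.398 to 0.0112 for Cd28. The cause of these changes was not tested beyond the library left out.

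Replicate numbers were not taken to pair the libraries, since the labels do not say what they mark and not every same-numbered pair correlated. In their deviations from group means, 4 of 15 same-numbered and 5 of 30 differently numbered wild type pairs correlated above 0.1, and 6 of 15 and 1 of 30 Cdh2-cKO pairs. Ddx3y followed the number in 3 populations, whereas replicate 2 of CD45 single positive cells differed from the other replicates 2 in both genotypes. A fit with the replicate number as a block changed no count of members, left 9 called between CD45+ and CD45- cells and 0 in the other comparisons, and turned Pdcd1 to 0.58, Havcr2 to -0.00493, Tigit to 0.285, Icos to 0.11 and Tox to 0.637 between double positive and CD45 single positive cells, and Lag3 to 0.512 relative to Cd3e. Under this block the members' median between the labels was -2.43 (without it -2.64) in double positive and -2.81 (-3.53) in CD45 single positive cells, with 0 called. At an unadjusted p under 0.05 there were 5 and 6 members, and 3.4% and 7.6% of all genes. With 2 or 3 libraries a group and Cd3e at 25 reads in the poorest CD45+ library, ratios of Cd96, Tox and Ctla4 there rest on 1, 1 and 5 reads. Reads carry no molecular identifiers.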
